A study of Mus musculus with 8 samples.

Results

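The genes of bone morphogenetic protein (BMP) signal reception were followed across CD31-sorted kidney cells of Crim1 mutant and wildtype mice. They are the type I receptors Acvrl1 and Bmpr1a, the type II receptor Bmpr2 and the co-receptor Eng, the signal-carrying Smad1 and Smad5, the inhibitory Smad6 and Smad7, and the target genes Id1 and Id3. The 10 genes were chosen by symbol among the 19057 named genes of the array, with all their probes. They had 19 probes, of which 16 were tested because 2 or more arrays detected them (detection p under 0.05), and these covered 9 of the 10 genes. Smad7 had 1 probe, whose raw signal lay between 60.0 and 74.7 with a detection p of 0.551 to 0.982. Smad7 was thus well above background on none of the 8 arrays and has no level here.

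Total RNA came from kidney cells of adult mice of a C57B6/CD1 background, collected by magnetic sorting (MACS) for the endothelial surface protein CD31. Mutant mice carried the KST264 gene-trap allele of Crim1 on both chromosomes (genotype Crim1KST264/KST264), so the allele was present in every cell of the animal and not in endothelium alone, and control mice were wildtype. Each genotype had 4 single-colour Illumina arrays, numbered 1 and 3 for its females and 2 and 4 for its males, which makes 4 groups of 2. The study speaks of 4 mouse pairs without stating whether every array is its own animal, and p-values therefore cover only the variation among these samples, which could be technical.

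BMP ligands bind a complex of type I and type II serine/threonine kinase receptors, and the type I receptor then phosphorylates Smad1 and Smad5, which enter the nucleus with the shared partner Smad4. In endothelium the circulating ligands act mainly through Acvrl1 (ALK1) with Bmpr2, and Eng (endoglin) presents ligand to them; inherited loss of ACVRL1 or ENG causes hereditary haemorrhagic telangiectasia in humans, and loss of BMPR2 causes pulmonary arterial hypertension. Id1 and Id3, which encode inhibitors of basic helix-loop-helix transcription factors, are direct Smad targets, and Smad6 and Smad7 are induced by the pathway and dampen it. Crim1 encodes a membrane protein with cysteine-rich repeats that binds BMPs.

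Smads recognise the letters GTCT (the Smad box), so the sequence around the annotated start was set beside the members. RefSeq windows from 250 bases before to 50 bases after the start (build GRCm38.p6) were used for 7 of the 10 genes. Acvrl1, Id1 and Smad7 were not among them. The windows of the co-receptor Eng, the type I receptor Bmpr1a, the inhibitory Smad6 and the target Id3 are printed, because these genes stand for the classes compared here and Bmpr1a is the gene with the opposite sign of difference. They read 5′ to 3′ on the gene's strand, at chr2:32646345-32646644 (plus strand) for Eng, chr14:34502497-34502796 (minus strand) for Bmpr1a, chr9:64022010-64022309 (minus strand) for Smad6 and chr4:136143572-136143871 (plus strand) for Id3, and capitals mark GTCT or its reverse complement AGAC.
Eng: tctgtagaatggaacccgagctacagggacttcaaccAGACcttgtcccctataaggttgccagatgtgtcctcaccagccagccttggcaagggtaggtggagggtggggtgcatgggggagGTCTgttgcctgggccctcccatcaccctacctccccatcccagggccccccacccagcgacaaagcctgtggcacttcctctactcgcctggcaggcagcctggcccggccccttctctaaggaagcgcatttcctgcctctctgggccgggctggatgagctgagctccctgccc
Bmpr1a: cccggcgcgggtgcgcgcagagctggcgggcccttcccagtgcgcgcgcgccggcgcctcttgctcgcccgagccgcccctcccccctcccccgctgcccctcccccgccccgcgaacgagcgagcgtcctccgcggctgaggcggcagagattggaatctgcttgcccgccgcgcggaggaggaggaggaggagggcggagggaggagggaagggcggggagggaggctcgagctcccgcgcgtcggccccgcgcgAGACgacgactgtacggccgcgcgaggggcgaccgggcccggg
Smad6: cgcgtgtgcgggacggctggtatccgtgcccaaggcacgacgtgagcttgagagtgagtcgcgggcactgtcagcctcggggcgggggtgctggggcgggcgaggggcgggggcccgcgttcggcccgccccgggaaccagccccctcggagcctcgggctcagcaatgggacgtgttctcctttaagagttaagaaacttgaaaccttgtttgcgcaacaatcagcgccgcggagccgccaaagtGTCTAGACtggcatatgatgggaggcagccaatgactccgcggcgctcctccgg
Id3: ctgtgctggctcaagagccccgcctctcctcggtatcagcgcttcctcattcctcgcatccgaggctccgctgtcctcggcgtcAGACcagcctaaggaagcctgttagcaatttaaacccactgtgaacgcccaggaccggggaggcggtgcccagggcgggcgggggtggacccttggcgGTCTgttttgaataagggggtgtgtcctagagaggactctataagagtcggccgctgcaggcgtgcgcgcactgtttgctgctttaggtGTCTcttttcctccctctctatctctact
Counted from the annotated start (base 1, with negative positions before it), Eng held Smad boxes from positions -213 and -127, and Bmpr1a held 1 from position 8. In Id3 there were 3, from positions -166, -68 and 22. Both Smad boxes of Smad6 adjoin in the palindrome GTCTAGAC, which spans the annotated start (its boxes begin at positions -4 and 1). A single GTCT on either strand is common, being present in 88.0% of the 32851 promoter windows of the same length, whereas GTCTAGAC was present in 0.213% of them (70 windows). The windows of Smad1 and Bmpr2 held no GTCT on either strand. The GC-rich letters GGCGCC, searched on both strands, occurred in 11.9% of all windows and in those of Bmpr2, Bmpr1a and Smad5 (for Smad5, in 2 of its 3 windows). These are matches of letters, which do not show that a factor binds there.

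Crim1 itself checked the genotype labels. It does not check the sex labels, which come from the sample titles. Probe ILMN_2910295 read 5.82 and 5.82 in mutant females 1 and 3, 4.67 and 4.88 in mutant males 2 and 4, 7.98 and 7.91 in wildtype females and 7.66 and 6.97 in wildtype males (log2 intensity), and all mutant arrays lay below all wildtype arrays. Both mutant males were not well above background (detection p of 0.142 to 0.340), so Crim1 was at least 4.14-fold lower in mutant males (taking the lowest detected signal of an array as their level), and in females, where all arrays detected it, 4.37-fold lower. Over both sexes the measured log2 difference was -2.33 (SE 0.17, limma with Benjamini-Hochberg adjusted p = 0.0370). This call was kept in 5 of 18 alternative fits. Leaving out an array gave an adjusted p of 0.0227 (without wildtype male 4) to 0.218, past the threshold in 1 of 8 such fits, with a difference of -2.51 to -2.16. With the sample number as a block (arrays of equal number paired) the adjusted p was 0.159, and in the authors' processed values the difference was -0.72 (adjusted p = 0.147). Raw array medians ran from 83.2 to 98.5 and 45.1% to 48.7% of probes were detected per array. Mutant male 2 had the lowest median and stood apart on the second principal component (18.4% of the variance, at 53.8 against -39.9 to 3.47 for the others), so differences in males are given with and without it. Of 21 pan-endothelial markers, 19 had a tested probe, Pecam1 (which encodes CD31), Cdh5 and Tie1 among them, while Kdr and Ecscr were not well above background. Array by array, the median of this list ranked at percentile 92.4 to 97.4 when all 45281 probes were counted, undetected ones included. On the same scale the median of 9 proximal tubule genes ranked at 97.5 to 99.4, so the sorted fraction also carried tubule RNA.

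Across both sexes, 8 of the 9 tested genes lay lower in mutants than in wildtype arrays and Bmpr1a lay higher, but no gene passed the test (adjusted p from 0.428 to 0.792). Of all 23841 tested probes, 47.5% lay below 0 in this comparison and 0.0378% passed at an adjusted p under 0.05, with a median log2 difference of 0.01. The median difference was -0.49 for the 4 receptors, -0.29 for the 3 tested Smads and -0.42 for the Id pair. Single arrays moved these medians: the receptor median was -0.22 without mutant male 2 and -0.70 without mutant male 4. That of the Id pair was -0.23 without mutant female 1 and -0.61 without mutant female 3. The difference between these classes was not tested. At an unadjusted p under 0.05 there were 2 of the 9 genes, Acvrl1 and Smad5, beside 8.78% of all probes. With the sample number as a block, which pairs each mutant array with the wildtype array of the same number, there were 6 (Acvrl1, Eng, Smad1, Smad5, Id1 and Id3), beside 9.98% of all probes, and again none passed after adjustment. RNA was pooled over cells, so fewer cells of a type and less RNA per cell cannot be told apart.

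**Figure D1:**
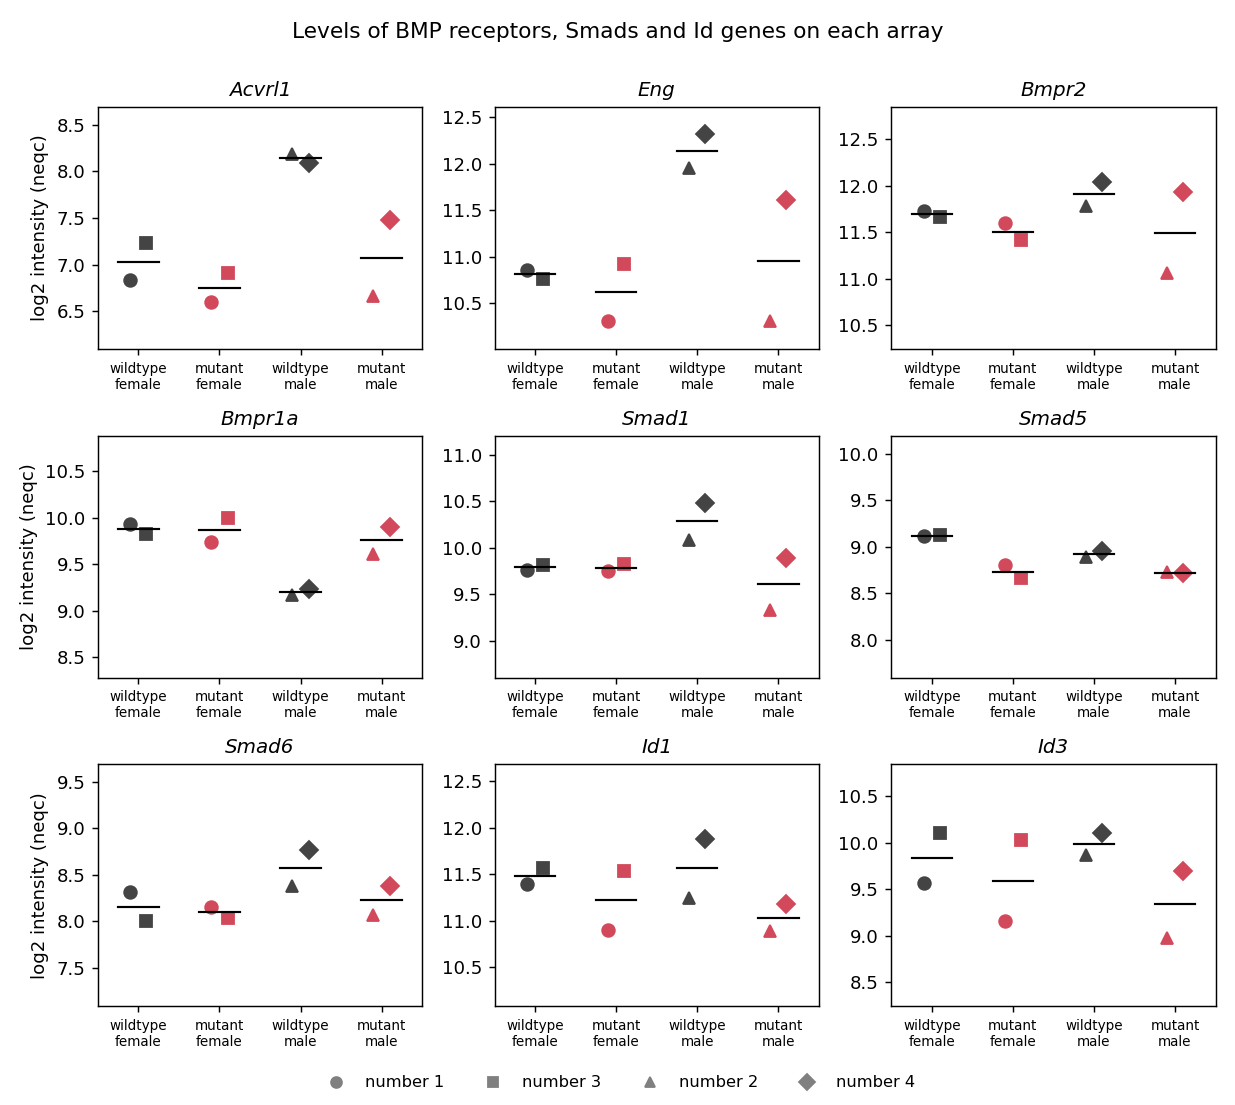
Levels of the 9 tested genes on each array, as log2 intensity after normalization (neqc), with 1 panel a gene and all panels spanning an equal range. Symbols are arrays (shape gives the sample number, red mutant, dark wildtype) and lines are means of 2 arrays; wildtype males stand highest for Acvrl1, Eng and Smad1 and lowest for Bmpr1a, and the 4 mutant arrays of Smad5 lie between 8.66 and 8.80, below all wildtype arrays.

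Acvrl1, the endothelial type I receptor, read 6.59 and 6.91 in mutant females 1 and 3, 6.67 and 7.48 in mutant males 2 and 4, 6.84 and 7.23 in wildtype females and 8.19 and 8.09 in wildtype males (probe ILMN_1248328). The wildtype males stood above all other arrays, and the mutant and wildtype ranges overlapped in females but not in males. Over both sexes Acvrl1 was 1.59-fold lower in mutants (log2 difference -0.67, SE 0.20, 95% interval -1.16 to -0.19, limma adjusted p = 0.428). Its group means ordered as wildtype males (8.14 ± 0.07, SD, n = 2), mutant males (7.07 ± 0.58), wildtype females (7.03 ± 0.27) and mutant females (6.75 ± 0.23), and the arrays of the last 3 groups overlapped.

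Eng, the co-receptor that is abundant on endothelial cells, read 10.31 and 10.92 in mutant females, 10.30 and 11.61 in mutant males, 10.86 and 10.76 in wildtype females and 11.95 and 12.31 in wildtype males (ILMN_1229161). It followed the pattern of Acvrl1, with both wildtype males above every other array and the wildtype females between the 2 mutant females. Eng was 1.61-fold lower in mutants over both sexes (log2 difference -0.69, SE 0.30, 95% interval -1.39 to 0.01, adjusted p = 0.578). The mean was 10.78 ± 0.62 in mutants and 11.47 ± 0.78 in wildtype arrays (SD, n = 4). Without mutant male 2 the difference of Eng was -0.36, and without mutant male 4 it was -1.01.

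Bmpr2, the type II receptor, read 11.59 and 11.41 in mutant females, 11.05 and 11.93 in mutant males, 11.73 and 11.66 in wildtype females and 11.78 and 12.03 in wildtype males (ILMN_1217466). Mutant male 2 was lowest, and mutant male 4 lay between the wildtype males. The difference over both sexes was -0.30 (SE 0.20, adjusted p = 0.768) and was -0.09 without mutant male 2 and -0.52 without mutant male 4. Its 2 dimmer tested probes gave -0.02 and -0.15.

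Bmpr1a, a type I receptor expressed in many cell types, read 9.74 and 9.998 in mutant females, 9.62 and 9.90 in mutant males, 9.94 and 9.82 in wildtype females and 9.17 and 9.23 in wildtype males (ILMN_1251119). Wildtype males, highest for Acvrl1, were lowest for Bmpr1a, and all other arrays lay within 9.62 to 9.998. Over both sexes Bmpr1a was 1.21-fold higher in mutants (log2 difference 0.27, SE 0.12, 95% interval -0.01 to 0.56, adjusted p = 0.599). A further probe of the gene, ILMN_2653312, gave 0.21.

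Smad1, a receptor-activated Smad, read 9.75 and 9.82 in mutant females, 9.33 and 9.89 in mutant males, 9.76 and 9.82 in wildtype females and 10.09 and 10.48 in wildtype males (ILMN_2953700). By this probe all females lay within 9.75 to 9.82 whatever their genotype, and the males of the 2 genotypes did not overlap. The difference over both sexes was -0.34 (SE 0.16, limma adjusted p = 0.636). It was -0.20 without mutant male 2 and -0.48 without mutant male 4. Another bright probe, ILMN_2671572, gave a smaller -0.12, and the 2 dim tested probes gave -0.21 and -0.31. On that bright probe the males overlapped, with mutant male 4 at 10.07 and wildtype male 2 at 9.89.

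Smad5, the other receptor-activated Smad measured here, read 8.80 and 8.66 in mutant females, 8.73 and 8.71 in mutant males, 9.11 and 9.13 in wildtype females and 8.89 and 8.96 in wildtype males (ILMN_3155789). It was the 1 gene of the 9 whose 4 mutant arrays all lay below the 4 wildtype arrays, as 1.37% of all probes did. The mean was 8.73 ± 0.06 in mutants and 9.02 ± 0.11 in wildtype arrays (SD, n = 4), 1.23-fold lower in mutants (log2 difference -0.29, SE 0.10, 95% interval -0.53 to -0.06, adjusted p = 0.466). The dimmer Smad5 probe, ILMN_3076864, did not share this difference (-0.03).

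Smad6, which blocks receptor-activated Smads, read 8.15 and 8.04 in mutant females, 8.06 and 8.38 in mutant males, 8.31 and 8.01 in wildtype females and 8.38 and 8.77 in wildtype males (ILMN_3008748). The genotypes overlapped in both sexes. The difference was -0.21 (SE 0.15, limma adjusted p = 0.792), the smallest of the 9 in size. It was -0.11 without wildtype male 4 and -0.30 without wildtype male 2.

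Id1, a transcriptional target that is often read as a gauge of BMP signalling, read 10.91 and 11.54 in mutant females, 10.89 and 11.18 in mutant males, 11.40 and 11.56 in wildtype females and 11.25 and 11.88 in wildtype males (ILMN_2672190). Mutant female 1 and mutant male 2 were lowest, and mutant female 3 lay within the wildtype range. Id1 was 1.31-fold lower in mutants (log2 difference -0.39, SE 0.20, 95% interval -0.87 to 0.09, adjusted p = 0.685), with means of 11.13 ± 0.31 and 11.52 ± 0.27 (SD, n = 4). Without mutant female 1 the difference was -0.23, and without mutant female 3 it was -0.55.

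Id3 read 9.15 and 10.03 in mutant females, 8.98 and 9.70 in mutant males, 9.57 and 10.10 in wildtype females and 9.87 and 10.11 in wildtype males (ILMN_2687169). As for Id1, mutant female 1 and mutant male 2 were lowest. Id3 was 1.36-fold lower in mutants (log2 difference -0.44, SE 0.26, 95% interval -1.06 to 0.17, limma adjusted p = 0.730). Its difference was -0.22 without mutant female 1 and -0.66 without mutant female 3. These intervals of both Id genes include 0. Within the pairs of equal sample number, the mutant array was the lower one in all 4 pairs for both genes. The differences were -0.49, -0.36, -0.02 and -0.70 for Id1 and -0.41, -0.89, -0.07 and -0.41 for Id3 (numbers 1 to 4). The same held in all 4 pairs for Acvrl1, Bmpr2 and Smad5, in 3 of 4 for Eng, Smad1 and Smad6, and in 1 of 4 for Bmpr1a. The share of all probes lower in all 4 pairs was not counted, so these counts have no background to be set against. With the block the 95% intervals were -0.75 to -0.04 for Id1 (limma adjusted p = 0.449) and -0.80 to -0.08 for Id3 (limma adjusted p = 0.403). With the arrays paired, the unadjusted intervals of both Id genes thus lie below 0, as do those of Acvrl1, Eng, Smad1 and Smad5. In that fit 9.98% of all probes had an unadjusted p under 0.05, in either direction. None of these genes passed after adjustment over all probes.

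The genotype comparison was then made within each sex. In males 8 of the 9 genes lay below 0, as did 46.6% of all probes. Eng was 2.26-fold lower in mutants (log2 difference -1.18, SE 0.42, adjusted p = 0.368), Acvrl1 2.09-fold lower (-1.07, SE 0.29, adjusted p = 0.261) and Smad1 1.60-fold lower (-0.68, SE 0.23, adjusted p = 0.347), and Bmpr1a was 1.47-fold higher (0.56, SE 0.17, adjusted p = 0.313). No gene passed the test, as 0.00419% of all probes did; those 4 genes had an unadjusted p under 0.05, beside 11.2% of all probes (6 genes with the block, Id1 and Id3 added, beside 12.3%). Both mutant males lay below both wildtype males for 6 genes (Acvrl1, Eng, Smad1, Smad5, Id1 and Id3), as for 18.2% of all probes, and above them for Bmpr1a, as for 21.2%. The other bright Smad1 probe gave -0.35 in males (SE 0.26) and the dim ones -0.32 and -0.31, and mutant and wildtype males overlapped on each. They also overlapped on the dimmer Smad5 probe (-0.13, SE 0.20). Id1 differed by -0.53 (SE 0.29, adjusted p = 0.559) and Id3 by -0.65 (SE 0.37, adjusted p = 0.577). The medians in males were -0.74 for receptors, -0.35 for Smads and -0.59 for the Id pair, with 0.02 over all probes.

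The values in males depended on single arrays, for most genes on the 2 mutant males. Leaving out either of these 2 arrays moved a difference equally far, in opposite directions. In each such fit, the lone remaining mutant male was assumed to vary like the other groups. Without mutant male 2 the male difference was -0.66 for Acvrl1, -0.52 for Eng, -0.40 for Smad1, -0.29 for Id3 and 0.70 for Bmpr1a, and Bmpr2 moved from -0.42 to 0.02. The receptor median in males was then -0.25. Without mutant male 4 the receptor median was -1.16 in place of -0.74, and Eng differed by -1.83, Bmpr2 by -0.85 and Id3 by -1.01. Id1 and Smad6 depended most on the wildtype males: without wildtype male 4 the male difference was -0.21 for Id1 and -0.16 for Smad6, and without wildtype male 2 it was -0.85 and -0.55.

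In females all 9 genes lay below 0, as did 50.8% of all probes, but the differences were small: -0.28 for Acvrl1, -0.20 for Eng, -0.19 for Bmpr2, -0.26 for Id1 and -0.24 for Id3. Bmpr1a (-0.01) and Smad1 (-0.00) were level. Smad5 differed most (-0.39, SE 0.14) and was the 1 gene with an unadjusted p under 0.05, beside 4.26% of all probes (0 genes with the block, beside 5.12%). The dimmer Smad5 probe did not share this difference in females (0.07, SE 0.20). Without mutant female 1 the female difference was 0.11 for Eng, 0.06 for Id1 and 0.20 for Id3. Without mutant female 3 it was -0.50 for Eng, -0.58 for Id1 and -0.68 for Id3. No gene passed the test in females, where no probe of the array did, and every adjusted p of the members was 1.00 after rounding. Both mutant females lay below both wildtype females for Bmpr2 and Smad5, as for 16.7% of all probes.

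The difference between the sexes in the genotype effect was tested as an interaction. It was -0.98 for Eng (SE 0.59, adjusted p = 0.796), -0.79 for Acvrl1 (SE 0.41, adjusted p = 0.764), -0.68 for Smad1 (SE 0.32, adjusted p = 0.743) and 0.57 for Bmpr1a (SE 0.24, adjusted p = 0.718). None of the 9 genes passed, at an unadjusted p under 0.05 either (6.97% of all probes did), so the larger differences in males are not shown to differ from those in females. With the block 1 gene did, Smad1 (limma adjusted p = 0.577), beside 8.19% of all probes. Without mutant male 2 the interaction was -0.33 for Eng, -0.38 for Acvrl1 and -0.40 for Smad1, and the receptor median went from -0.51 to -0.06. Without mutant male 4 it was -1.63 for Eng, -1.20 for Acvrl1 and -0.96 for Smad1, with a receptor median of -0.93. For the Id genes the interaction was -0.27 and -0.41. The other bright Smad1 probe gave an interaction of -0.46 (SE 0.36), and the dim ones gave -0.22 and 0.01.

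**Figure D2:**
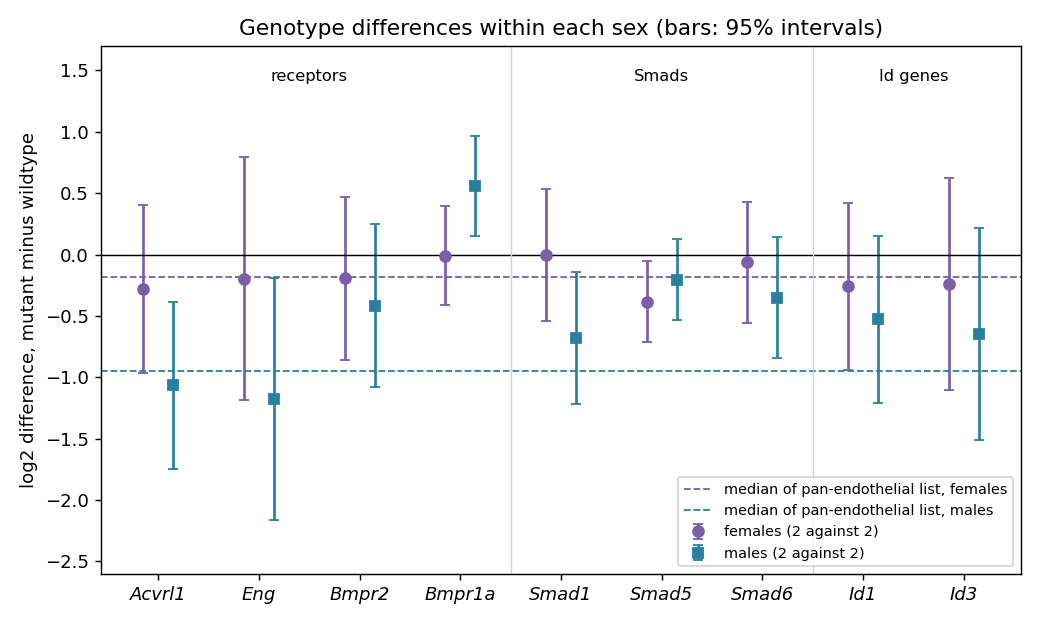
Genotype differences (mutant minus wildtype, log2) of each gene in females and in males, 2 arrays against 2, with 95% intervals of the limma fit. Dashed lines are the medians of the 19 pan-endothelial genes in each sex (-0.18 in females, -0.95 in males); Acvrl1 and Eng lie near the male line, and Bmpr1a lies on the other side of 0.

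Sex itself was compared over both genotypes. Acvrl1 was 1.64-fold higher in males (log2 difference 0.71, SE 0.20, adjusted p = 0.121), Eng 1.78-fold higher (0.83, SE 0.30, adjusted p = 0.183), and Bmpr1a 1.31-fold lower (-0.39, SE 0.12, adjusted p = 0.137). No member passed, as 3.06% of all probes did, and these 3 genes had an unadjusted p under 0.05, beside 20.1% of all probes. Without mutant male 2, Acvrl1 (0.92, adjusted p = 0.0437) and Eng (1.16, adjusted p = 0.0410) passed the threshold. The other 6 genes had smaller differences, at 0.10 for Bmpr2, 0.16 for Smad1, -0.10 for Smad5, 0.27 for Smad6, -0.05 for Id1 and -0.05 for Id3, and the dimmer Smad5 probe gave -0.52 (adjusted p = 0.106).

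Endothelial markers were high and low on many of the same arrays. The mean of the 19 pan-endothelial genes was 10.64 and 10.74 in mutant females, 10.40 and 11.31 in mutant males, 10.68 and 10.92 in wildtype females and 11.57 and 11.89 in wildtype males (log2 intensity). Wildtype males were highest and mutant male 2 lowest, as for Eng; for Acvrl1 the wildtype males were also highest and mutant female 1 was lowest. The median difference of the list was -0.57 over both sexes, with 18 of 19 genes below 0, and -0.95 in males, with all 19 below 0. None of the 19 passed the test in either comparison.

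With that endothelial mean as a covariate beside sex, the genotype difference was -0.23 for Acvrl1 (SE 0.16), -0.04 for Eng (SE 0.19), 0.01 for Bmpr2 (SE 0.17), 0.02 for Smad1 (SE 0.13), -0.15 for Id1 (SE 0.22) and -0.06 for Id3 (SE 0.24). The receptor median was then -0.02 in place of -0.49. Bmpr1a (0.22, SE 0.20) and Smad5 (-0.34, SE 0.12, adjusted p = 0.793) kept differences of about the size they had without the covariate. The covariate came from the same arrays and its genes themselves differed by genotype (median -0.57, 18 of 19 below 0). A gene that follows the list across arrays therefore loses difference in this fit, whatever the cause. The fit cannot tell fewer endothelial cells from less RNA per cell, and the cause was not tested.

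**Figure D3:**
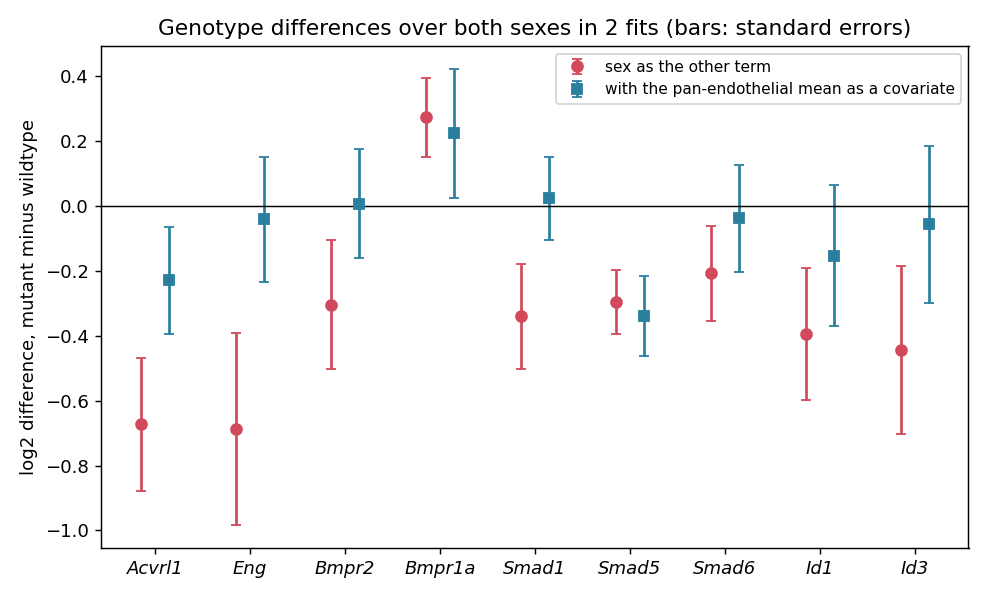
Genotype differences over both sexes (mutant minus wildtype, log2) in the fit with sex as the other term and in the fit that adds, as a covariate, the mean over 19 pan-endothelial genes; bars are standard errors. With the covariate Eng moved most (-0.69 to -0.04), while Bmpr1a and Smad5 stayed near 0.22 and -0.34.

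Among the other marker lists, those of tubule injury and of fibroblasts were higher on all mutant than on all wildtype arrays, although none of their genes passed the test (smallest adjusted p 0.167 and 0.205). The mean of 8 tubule injury genes was 7.99 to 8.56 in mutants and 6.94 to 7.15 in wildtype arrays, and that of 4 fibroblast genes was 7.90 to 8.65 against 7.03 to 7.68; the defining fibroblast genes Lum, Col1a1 and Col3a1 were not well above background. Their part in the values of the BMP genes was not tested. The mural and mesangial list overlapped between genotypes (7.05 to 7.75 in mutants, 7.34 to 7.85 in wildtype arrays).

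**Figure D4:**
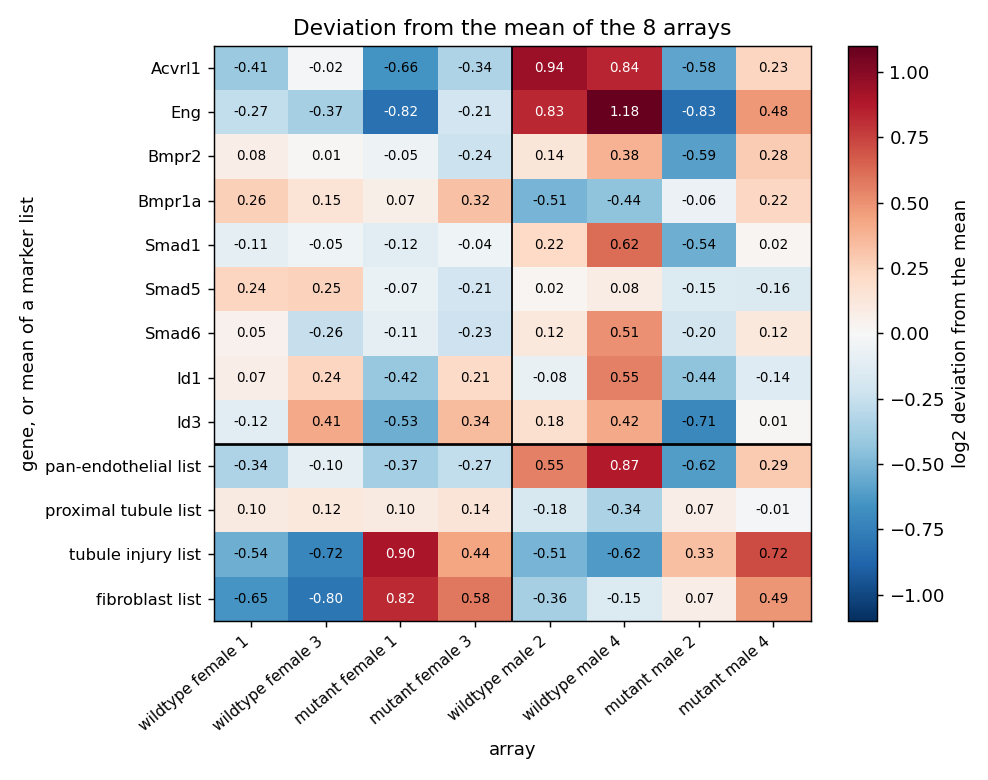
Deviation of each gene, and of the mean of 4 marker lists, from its mean over the 8 arrays (log2, colour and printed value), with columns as arrays. Acvrl1, Eng and the pan-endothelial list share high values in wildtype males and a low value in mutant male 2 (-0.58, -0.83 and -0.62), Id1 and Id3 are lowest in mutant female 1 and mutant male 2, and the injury and fibroblast lists are above their means on every mutant array.

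The rest of the pathway was read from 3 lists of 35 other genes, 26 of them with a tested probe. Of 10 other receptors and co-receptors, 9 were tested, none passed in the genotype comparison and the median difference was 0.07, with Tgfbr3 (betaglycan, a co-receptor) at -0.27 and the co-receptor Rgma at 0.27 as the extremes. Of 13 other Smads and regulators, 9 were tested, none passed and the median was 0.01; the largest difference was that of the Smad co-repressor Skil (-0.22). Of 12 other targets, 8 were tested, none passed and the median was -0.07. Smad4, Smurf2 and Lemd3 were not analysed here, and Bambi, Smad9, Msx2, Hamp, Dlx5 and Nog had no probe that passed the filter.

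Among these targets 2 of the 8 tested had an unadjusted p under 0.05 by genotype over both sexes, beside 8.78% of all probes. Msx1, a homeobox target of BMPs, read 6.17 and 6.44 in mutant females, 6.54 and 6.70 in mutant males, 6.95 and 7.24 in wildtype females and 6.82 and 7.14 in wildtype males. All mutant arrays lay below all wildtype arrays, as for 1.37% of all probes (log2 difference -0.58, SE 0.14, limma adjusted p = 0.365). The difference was -0.79 in females and -0.36 in males. Hey1, a Notch and BMP target that encodes a transcriptional repressor, read 8.92 and 8.71 in mutant females, 9.15 and 9.24 in mutant males, 8.58 and 9.12 in wildtype females and 9.96 and 10.46 in wildtype males. As with Acvrl1 and Eng, the wildtype males stood above all other arrays. Hey1 differed by -0.52 over both sexes (SE 0.17, adjusted p = 0.454) and by -1.01 in males (SE 0.24, adjusted p = 0.238). Of the other Id genes, Id2 differed by -0.03 and Id4 by -0.55 (SE 0.33, adjusted p = 0.743).

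By sex, 2 of these 26 other genes passed, as 3.06% of all probes did. Hey1 was 1.83-fold higher in males (log2 0.87, adjusted p = 0.0483). Smad3, a Smad of the TGF-beta branch that is named here after its values were seen, was 1.44-fold lower in males (log2 -0.52, adjusted p = 0.0483; -0.31 by its other probe). Both calls were lost on leaving out any 1 of the 8 arrays, with an adjusted p of 0.0647 to 0.144 for Hey1 and 0.0720 to 0.168 for Smad3.

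Likeness of pattern was measured as Pearson's r over the 8 arrays, against 12475 other genes with 1 probe each. The 5 genes most like Acvrl1 were Arhgef26 (0.995), Dlc1 (0.988), Grasp (0.987), Myrip (0.986) and Inpp5a (0.986). Eng ranked 78 for likeness to Acvrl1 (r = 0.950), and Bmpr1a had r = -0.741. The 5 most like Id1 were Tfeb (0.944), 1700093K21Rik (0.938), Gm26588 (0.929), Chst15 (0.925) and Cep295 (0.924), and Id3 ranked 17 (r = 0.892), while Acvrl1 and Id1 had r = 0.529. These are descriptions: the 8 points share 2 sexes and 2 genotypes, which enter every r.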

How the data were processed

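Total RNA of 8 samples was measured on single-colour Illumina BeadChips, 1 array a sample. The authors' deposited table gives a linear intensity for 45281 probes on each array and, per the file headers, a detection p-value beside each. The authors' deposited processed values, which look like log2 values (lowest value 7.15, column medians of 7.46 to 7.47), were used as an alternative; the sources used here do not give how they were made. Each of their columns matched its own array (r of at least 0.977 across probes, after centring) and no other (at most 0.443), and 0 columns could not be tied to a sample.

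Signals were background-corrected by normexp through the detection p-values, raised by an offset of 16, quantile normalized and taken to log2 with neqc (limma 3.58.1 in R 4.3.3). Promoter windows, tables and plots used Python 3.11.15, pandas 2.3.3 and matplotlib 3.10.9. Testing covered the 23841 probes (12476 named genes) detected at p under 0.05 by 2 or more arrays. With 4 group means in the model, 5 contrasts were tested (genotype over both sexes, in females and in males, their interaction, and sex) by eBayes after lmFit (degrees of freedom: 4 residual, 3.05 prior), two-sided, with Benjamini-Hochberg adjustment over all tested probes at a threshold of 0.05. SE denotes the model's standard error. Precision is limited by the number of arrays. The code of the fit was also run on simulated data with larger changes than the members showed over both sexes. That run does not give the power to find differences of the members' size.

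Probes were named from the platform's annotation, updated through the Entrez identifier. Where several probes of a gene were tested, the brightest on average stands for it and the others are given beside it. Levels of different probes were not compared. Genes outside the 10 are named where they were the extreme of a pathway list or had an unadjusted p under 0.05 by genotype, with Id2, Id4 and Smad3 named after their values were seen. The members and the 12 gene lists were chosen with earlier results of these data known.

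The sample numbers occur in both genotypes, and the study design speaks of 4 pairs. The deviations of same-numbered samples from their group means had a correlation over probes of 0.100 in females and 0.269 in males. With 2 pairs a sex, both pairs of a sex share 1 value, which cannot show that the numbers pair the samples. Because the design speaks of pairs, the number was also fitted as a replicate block. Other alternatives were no filter and a stricter filter, median scaling, no background correction, an offset of 50, the authors' values, leaving out each array, no sex term, an endothelial covariate and the mean over probes.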

Additional observations from a re-analysis of the deposited data

How the results depend on the processing

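In every setting run, 0 of the 9 genes passed the threshold by genotype (over both sexes, in females or in males) or in the interaction. By sex, 0 passed except without mutant male 2, when 2 did, Acvrl1 and Eng (leaving out each array in turn gave 0 to 2). Of 729 values of single genes under an alternative, 27 turned their direction, and 700 kept it and their side of the threshold. Many of the 729 could not turn. Leaving out an array leaves the genotype difference in the other sex as it was. The filters, the block and the fit without a sex term return the same estimate. With the replicate block, by the pairing of sample numbers, the adjusted p over both sexes was 0.339 for Acvrl1, 0.390 for Eng, 0.449 for Id1 and 0.403 for Id3, and no call changed among the 9 genes, while the count over all probes went from 9 to 0, and in males from 1 to 0; the sex effect cannot be fitted with it. With the pan-endothelial covariate Bmpr2 (0.0076) and Smad1 (0.0240) turned sign. With the mean over probes Bmpr1a turned in females (0.0477), and in the interaction Bmpr2 (0.223) and Smad5 (-0.0093) did. Leaving out each array in turn gave these ranges across 0: in females -0.50 to 0.11 for Eng, -0.14 to 0.12 for Bmpr1a, -0.0377 to 0.0355 for Smad1, -0.215 to 0.0873 for Smad6, -0.576 to 0.0588 for Id1 and -0.68 to 0.20 for Id3; in males -0.854 to 0.0199 for Bmpr2; in the interaction -0.66 to 0.21 for Bmpr2, -0.588 to 0.0474 for Id1 and -0.846 to 0.0332 for Id3; by sex -0.12 to 0.32 for Bmpr2, -0.21 to 0.11 for Id1 and -0.27 to 0.17 for Id3. Over both sexes Acvrl1 kept its sign (-0.88 to -0.47), as did Eng (-1.01 to -0.36). Over all probes, the number past the threshold by genotype was 9 and ran from 0 to 9, in males 1 and from 0 to 7, and by sex 730 and from 222 to 1120. The cause of these shifts was not tested.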
